A study of Mus musculus with 15 samples.

Results

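Plexins, neuropilins and semaphorins are the receptors, co-receptors and ligands of a cell guidance system, and 10 genes of the 3 families were followed here across cultured mouse granulosa cells: the plexins Plxna1, Plxna2, Plxna4, Plxnb1 and Plxnb2, the neuropilins Nrp1 and Nrp2, and the semaphorins Sema3a, Sema3c and Sema4c. They were picked by gene symbol from the 24490 counted genes, and all 10 were found and passed the filter on low counts, with 306 to 28496 reads per library. The cells were primary ovarian granulosa cells, the somatic cells around the oocyte, from 8-week-old RjOrl:SWISS female mice. They received siRNA against Foxl2, a forkhead transcription factor gene of granulosa cells, or against Esr2, the gene of oestrogen receptor beta, or a scrambled siRNA that targets neither. Transfection was transient and used Lipofectamine RNAiMax in all groups, and the targeting siRNAs were given as pools of 3. The labels list several pools, give the same catalogue numbers for the Foxl2 and the Esr2 pools and tie no pool to a library, so which siRNAs each library received is not known here. Poly(A) RNA was sequenced in 5 groups of 3 libraries: scrambled and Foxl2 siRNA, each sampled 30 h and 54 h after transfection, and Esr2 siRNA sampled after 30 h. Since no label tells whether replicates were separate cultures, the p-values reflect the spread among libraries, part of which may be technical.

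Semaphorins are secreted or membrane-bound proteins, and plexins are their transmembrane receptors. Most secreted class 3 semaphorins bind a neuropilin, which has no signalling domain of its own, in complex with an A-class plexin, whereas membrane-bound class 4 semaphorins bind B-class plexins directly. The cytoplasmic part of a plexin switches off small GTPases of the Ras and Rap families, which loosens integrin adhesion and collapses the actin cytoskeleton. Neuropilins also bind VEGF, the growth factor of blood vessels, and in the mouse ovary plexin-B1 has been studied in the growth of follicles.

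Gene counts per library lay between 44.98 M and 59.55 M, and levels are given as counts-per-million (CPM) after TMM scaling, with the mean ± SD of 3 libraries. Foxl2 stood at 174, 152 and 143 CPM with scrambled siRNA at 30 h and at 189, 154 and 166 CPM at 54 h. With Foxl2 siRNA it was 33.8, 28.4 and 65.4 CPM at 30 h and 33.7, 57.5 and 25.2 CPM at 54 h, a log2 change of -1.88 ± 0.31 (SE, adjusted p = 0.00164) and -2.13 ± 0.31 (adjusted p = 0.000191). Replicate 3 at 30 h and replicate 2 at 54 h thus kept the most Foxl2. With Esr2 siRNA, Foxl2 was 112, 128 and 114 CPM (adjusted p = 0.539). Esr2 fell from 60.6, 60.4 and 61.6 CPM to 12.9, 14.5 and 13.9 CPM with its own siRNA (log2 -2.15 ± 0.35, adjusted p = 0.00375). With Foxl2 siRNA Esr2 was at 29.2, 25.0 and 45.5 CPM at 30 h (adjusted p = 0.109), and it fell at 54 h, to 18.0, 49.3 and 15.7 CPM (log2 -1.31 ± 0.34, adjusted p = 0.00854, against 74.2, 64.9 and 67.3 CPM with scrambled siRNA). That change reached -2.03 without replicate 2 of Foxl2 siRNA at 54 h, and in the fit of the 6 libraries at 54 h alone it was not called (adjusted p = 0.0652). The granulosa genes Inha and Nr5a1 were at 1910 and 155 CPM in scrambled cells at 30 h, but Fshr was at 0.408 and Cyp19a1 at 2.86 CPM. Of the marker lists of other cell types, theca and stroma summed to 548 to 2090 CPM over all libraries, smooth muscle and pericytes to 594 to 1760 CPM, and neurons and glia to 223 to 449 CPM. The sums for leukocytes and oocytes stayed at or below 7.02 CPM. The summed level of 12 endothelial markers, a cell type known for neuropilin and plexin expression, was 6.49 to 19.5 CPM over all libraries, with Cldn5, Tie1 and Erg at 0 in at least 1 library.

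Upstream sequences of some genes that changed are shown because FOXL2 and ESR2 are DNA-binding factors. The set of RefSeq promoters used here, on GRCm38.p6, holds 8 of the 10 genes (all but Plxna1 and Plxna4). It gives 10 promoters for them, each running from 250 bases before to 50 bases after a transcription start. Printed are the 250 bases before the start, 5′ to 3′ on the gene's strand, for Plxnb1 (chr9:109095186-109095435, plus strand), which rose at both times of Foxl2 siRNA, for Nrp1 (chr8:128358823-128359072, plus strand) and Nrp2 (chr1:62703067-62703316, plus strand), which moved in opposite directions after Foxl2 siRNA, and for Plxna2 (chr1:194619579-194619828, plus strand) and both starts of Plxnb2 (chr15:89180789-89181038 and chr15:89173952-89174201, minus strand), which fell after Esr2 siRNA. Capitals mark matches, on either strand, to the FOXL2-type letters GTCAAGG, the forkhead letters TGTTTAC, or AGGTCA, the core of many nuclear receptor elements.
Plxnb1: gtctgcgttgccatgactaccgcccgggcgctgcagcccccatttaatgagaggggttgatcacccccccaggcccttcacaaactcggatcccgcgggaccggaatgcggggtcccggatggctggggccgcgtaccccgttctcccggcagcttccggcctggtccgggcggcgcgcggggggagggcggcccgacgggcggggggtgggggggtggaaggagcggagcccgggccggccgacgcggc
Nrp1: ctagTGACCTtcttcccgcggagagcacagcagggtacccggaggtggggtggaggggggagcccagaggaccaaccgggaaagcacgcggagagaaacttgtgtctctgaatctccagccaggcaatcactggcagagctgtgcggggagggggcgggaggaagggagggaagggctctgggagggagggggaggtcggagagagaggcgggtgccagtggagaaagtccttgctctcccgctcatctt
Nrp2: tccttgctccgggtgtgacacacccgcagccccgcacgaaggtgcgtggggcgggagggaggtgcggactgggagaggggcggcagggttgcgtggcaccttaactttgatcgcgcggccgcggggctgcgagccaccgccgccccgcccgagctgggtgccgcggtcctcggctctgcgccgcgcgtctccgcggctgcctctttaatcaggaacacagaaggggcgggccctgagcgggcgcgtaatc
Plxna2: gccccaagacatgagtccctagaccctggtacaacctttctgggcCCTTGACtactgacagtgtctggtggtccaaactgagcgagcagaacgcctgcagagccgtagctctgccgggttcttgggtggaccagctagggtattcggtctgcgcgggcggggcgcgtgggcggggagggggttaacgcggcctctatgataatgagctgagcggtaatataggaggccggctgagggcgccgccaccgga
Plxnb2, first start: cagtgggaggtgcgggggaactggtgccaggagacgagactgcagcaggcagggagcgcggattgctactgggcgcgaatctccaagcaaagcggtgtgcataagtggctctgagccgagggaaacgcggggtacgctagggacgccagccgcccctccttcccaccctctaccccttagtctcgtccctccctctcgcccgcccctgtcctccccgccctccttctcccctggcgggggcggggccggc
Plxnb2, second start: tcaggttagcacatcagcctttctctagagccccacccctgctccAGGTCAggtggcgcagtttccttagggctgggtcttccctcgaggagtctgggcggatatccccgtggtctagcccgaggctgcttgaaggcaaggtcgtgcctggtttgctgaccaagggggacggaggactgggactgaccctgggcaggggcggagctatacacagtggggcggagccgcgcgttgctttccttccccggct
Over the full windows, GTCAAGG was found on the minus strand in Plxna2 and in 1 of 2 promoters of Sema4c. AGGTCA was found on the minus strand in Nrp1 and on the plus strand at the second start of Plxnb2, and no matches overlapped. That is 2 of 10 promoters for each of these motifs and 0 of 10 for TGTTTAC, beside 3.18%, 16.3% and 3.65% of 32851 RefSeq mouse promoters of the same length. A match is a run of letters and not a measured binding site.

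In scrambled cells at 30 h the 10 genes differed widely in level. Per kilobase of exon, Plxnb2 was the highest at 55.5 ± 0.274 CPM per kb, followed by Plxna1 at 42.9 ± 1.37, Sema3c at 22.1 ± 1.17, Plxnb1 at 15.8 ± 0.112 and Nrp1 at 13.4 ± 0.113 CPM per kb. Plxna2 at 7.52 ± 1.05, Sema3a at 6.01 ± 0.475, Sema4c at 5.97 ± 0.125 and Nrp2 at 4.47 ± 1.04 CPM per kb came next. Plxna4 was the lowest of the 10, at 0.544 ± 0.12 CPM per kb, and ranked 25 of the 31 plexin, neuropilin and semaphorin genes measured. Plxna2 and Sema3a overlapped in their ranges over the 3 libraries, as did Sema3a and Sema4c, and no other neighbours in this order overlapped. At the top of the 31 genes stood Plxnc1, the receptor of Sema7a, at 81.3 ± 6.43 CPM per kb. Sema3d, a secreted class 3 ligand, ranked 3, after Plxnb2, at 42.2 to 47.9 CPM per kb. It overlapped Plxna1 at 41.4 to 44.1 CPM per kb. At 54 h of Foxl2 siRNA the order among the 10 had changed. Nrp1, at 30.9 ± 10.8 CPM per kb, came next after Plxna1 at 45.2 ± 4.83 CPM per kb. Its range overlapped those of Plxna1, of Plxnb1 at 25.6 ± 2.37 and of Sema3c at 24.5 ± 3.4 CPM per kb. Plxna4, at 5.54 ± 0.858 CPM per kb, stood beside Sema4c at 5.53 ± 0.683 CPM per kb, and Nrp2 was the lowest at 2.84 ± 0.794 CPM per kb, overlapping Sema3a at 3.14 ± 1.09 CPM per kb.

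**Figure D1:**
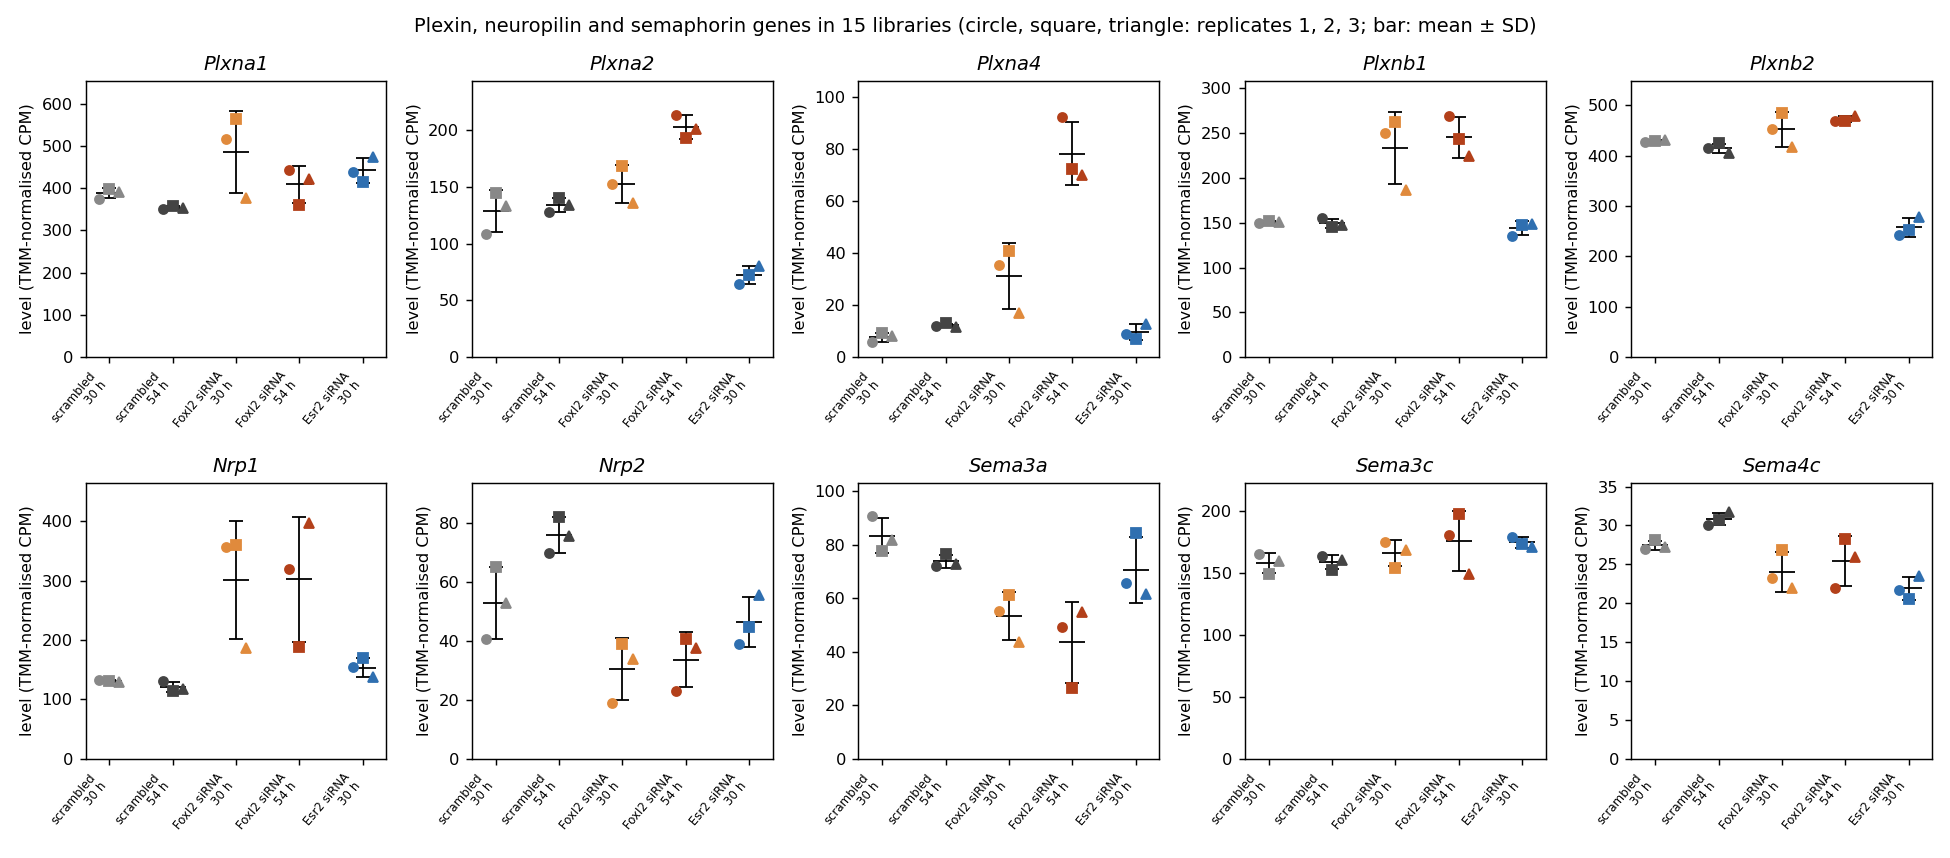
Level of each of the 10 genes (TMM-normalised CPM, vertical axes from 0) in every library by group, with circle, square and triangle for replicates 1, 2 and 3 and a bar for the mean ± SD. Plxna4, Plxnb1 and Nrp1 lie above the scrambled libraries in all 6 Foxl2 siRNA libraries, Nrp2 and Sema3a below those of the same time, and Plxna2 and Plxnb2 are lowest in the 3 Esr2 siRNA libraries.

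The comparison of Foxl2 with scrambled siRNA asked which guidance genes depend on Foxl2. At 30 h, 3 of the 10 genes rose, Plxna4, Plxnb1 and Nrp1, and 0 fell at an adjusted p under 0.05 (edgeR's quasi-likelihood test, Benjamini-Hochberg adjusted over all genes). DESeq2 called 5 of the 10, the same 3 and the falls of Nrp2 and Sema3a, beside 2304 of the 14907 genes tested with edgeR. With edgeR 7 of the 10 had an unadjusted p under 0.05, beside 4191 of these 14907 genes. Of all 14907 genes tested, 13.0% were called at 30 h, 945 higher and 991 lower, or 1204 higher and 799 lower with upper-quartile scaling. At 54 h, 5 of the 10 rose, namely Plxna2, Plxna4, Plxnb1, Plxnb2 and Nrp1, and 3 fell, namely Nrp2, Sema3a and Sema4c. At that time 38.8% of all genes tested were called. The median log2 change of the 10 was 0.16 at 30 h and 0.2 at 54 h, against -0.01 over all genes at both times. The 10 were chosen with earlier results of these data known, so these counts and medians are descriptions only. Markers of the ovarian surface epithelium moved with Foxl2 siRNA: the summed level of 9 such genes was 450 to 473 CPM and 412 to 483 CPM with scrambled siRNA at 30 h and 54 h, and 626 to 688 CPM and 1000 to 1080 CPM with Foxl2 siRNA. Of these 9, 3 were called higher at 30 h and 6 at 54 h, and Upk3b, Msln and Wt1 were at 120, 126 and 298 CPM at 54 h of Foxl2 siRNA, whereas Lgr5 was at 0.11 CPM. Of 12 granulosa markers, Foxl2 and Esr2 among them, 1 was higher and 4 lower at 30 h, and 2 were higher and 7 lower at 54 h, where the sum was 2360 to 3170 CPM against 3340 to 3410 CPM. The 10 neuron and glia markers, a cell type known for guidance genes, summed to 284 to 415 CPM against 223 to 235 CPM at 54 h, with 2 called higher and 2 lower. Of 10 leukocyte markers 2 were higher at 54 h, with sums of 4.7 to 5.98 against 3.07 to 3.41 CPM. Of 12 endothelial markers 1 was higher at 54 h and 0 lower, with overlapping sums of 9.24 to 19.5 against 8.44 to 15.6 CPM. Of 9 oocyte markers 1 was lower at 54 h, with sums of 1.26 to 1.77 against 2.45 to 3.06 CPM. The 10 theca and stroma markers summed to 1220 to 2090 CPM against 592 to 1320 CPM at 54 h, with 1 higher and 1 lower, and 0 of the 9 smooth muscle and pericyte markers were called at either time. The part of these markers' cells in the changes of the guidance genes was not tested. In RNA from whole cultures, fewer cells of a type and less RNA per cell cannot be told apart.

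**Figure D2:**
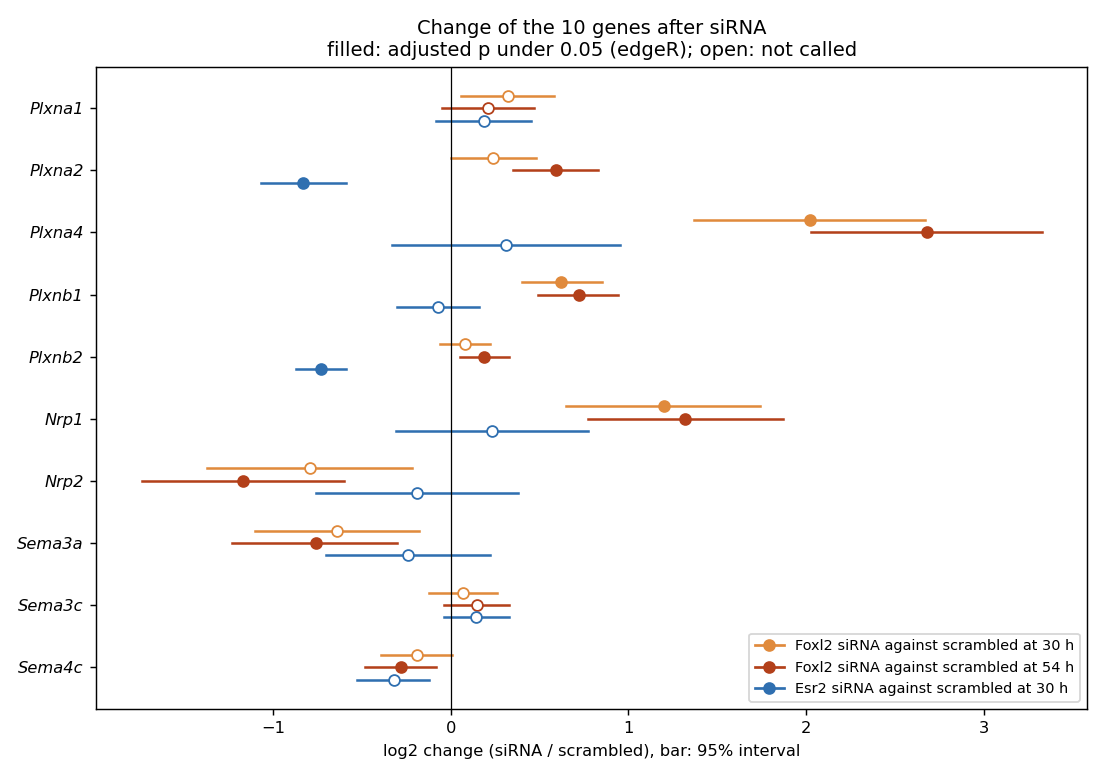
Log2 change of each gene (horizontal axis, siRNA over scrambled at the same time) with its 95% interval, for Foxl2 siRNA (30 h and 54 h) and Esr2 siRNA (30 h), filled where the adjusted p was under 0.05. Plxna4 shows the largest rise of the 10, 2.02 at 30 h and 2.68 at 54 h, and the filled points below 0 are Nrp2, Sema3a and Sema4c for Foxl2 siRNA at 54 h and Plxna2 and Plxnb2 for Esr2 siRNA.

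Of the A-class plexins, which pair with neuropilins, Plxna4 changed the most. Plxna4 (chr6:32144268-32588192, minus strand, GRCm38) was at 5.85, 9.20 and 7.98 CPM with scrambled siRNA at 30 h and at 11.8, 13.0 and 11.7 CPM at 54 h. With Foxl2 siRNA it was at 35.4, 40.9 and 17.0 CPM at 30 h and at 92.0, 72.3 and 70.0 CPM at 54 h. Every Foxl2 siRNA library lay above every scrambled library, and replicate 3 at 30 h was the lowest of the 6. The rise was 4.05-fold at 30 h (log2 2.02 ± 0.30, SE, adjusted p = 0.000936) and 6.42-fold at 54 h (log2 2.68 ± 0.30, adjusted p = 2.93e-05). Of the A-class plexin reads per kb, Plxna4 made up 1.01% ± 0.176 with scrambled and 3.18% ± 0.787 with Foxl2 siRNA at 30 h (SD, n = 3). At 54 h the shares were 1.71% ± 0.0783 and 8.52% ± 0.862. Its exons share 110 bases with the antisense gene Plxna4os3, and since the strand setting of the counting is not given in the sources used here, reads of the pair cannot be told apart.

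Plxna2 (chr1:194618218-194816869, plus strand), another neuropilin partner, was at 128, 140 and 134 CPM with scrambled siRNA at 54 h and at 214, 193 and 201 CPM with Foxl2 siRNA. The groups did not overlap, and the rise was 1.51-fold (log2 0.59 ± 0.11, adjusted p = 0.00107). At 30 h the values were 109, 145 and 133 CPM with scrambled and 153, 169 and 136 CPM with Foxl2 siRNA, so the groups overlapped and the difference was not called (log2 0.24 ± 0.11, adjusted p = 0.17). Plxna1 (chr6:89316314-89362620, minus strand), the most abundant A-class plexin, was not called at either time. It was at 375, 399 and 392 CPM with scrambled siRNA and at 517, 563 and 376 CPM with Foxl2 siRNA at 30 h (log2 0.32 ± 0.12, adjusted p = 0.103). Replicate 3, which kept the most Foxl2 at that time, was the low value, and without it the change was 0.47 with an adjusted p of 0.00342. At 54 h Plxna1 was at 350, 357 and 354 CPM with scrambled and at 444, 360 and 423 CPM with Foxl2 siRNA (log2 0.21 ± 0.12, adjusted p = 0.193). Plxna1 exons share 970 bases with the antisense gene Gm26811, so that the same limit on strand holds.

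Among the B-class plexins, the receptors of class 4 semaphorins, Plxnb1 rose at both times. Plxnb1 (chr9:109095389-109119917, plus strand), the receptor of Sema4d, was at 150, 152 and 151 CPM with scrambled siRNA at 30 h and at 155, 145 and 148 CPM at 54 h. It was at 250, 262 and 187 CPM at 30 h and at 269, 243 and 224 CPM at 54 h of Foxl2 siRNA. All 6 Foxl2 siRNA libraries were above all 6 scrambled libraries, and replicate 3 was the lowest of them at either time. The rise was 1.54-fold at 30 h (log2 0.62 ± 0.11, adjusted p = 0.00206) and 1.64-fold at 54 h (log2 0.72 ± 0.11, adjusted p = 0.000217). Plxnb1 exons share 257 bases with the antisense gene Gm7628.

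Plxnb2 (chr15:89155549-89180788, minus strand), the receptor of Sema4c, was at 414, 424 and 405 CPM with scrambled siRNA at 54 h and at 469, 468 and 479 CPM with Foxl2 siRNA. The groups did not overlap but the difference was small, 1.14-fold (log2 0.19 ± 0.06, adjusted p = 0.0359). That call was lost without any 1 of the 3 scrambled libraries or without Foxl2 siRNA replicate 1 or 3 (adjusted p 0.0597 to 0.102), and with no filter on low counts (adjusted p = 0.0534). At 30 h the values were 427, 428 and 431 CPM with scrambled and 453, 485 and 417 CPM with Foxl2 siRNA, which overlapped (log2 0.08 ± 0.06, adjusted p = 0.491). Plxnb2 made up 77.5% ± 0.778 of B-class plexin reads per kb with scrambled and 70.3% ± 2.26 with Foxl2 siRNA at 54 h.

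The neuropilins moved in opposite directions after Foxl2 siRNA. Nrp1 (chr8:128358604-128503363, plus strand), the co-receptor of Sema3a and of VEGF, was at 133, 131 and 130 CPM with scrambled siRNA at 30 h and at 131, 114 and 118 CPM at 54 h. With Foxl2 siRNA it reached 357, 360 and 186 CPM at 30 h and 320, 189 and 398 CPM at 54 h. The lowest of the 6, at 186 and 189 CPM, were replicate 3 at 30 h and replicate 2 at 54 h, the libraries with the most Foxl2 left, and these too exceeded every scrambled library. Nrp1 rose 2.29-fold at 30 h (log2 1.20 ± 0.25, adjusted p = 0.00859) and 2.5-fold at 54 h (log2 1.32 ± 0.25, adjusted p = 0.00136). Nrp1 exons share 80 bases with the microRNA gene Mir1903 on the same strand, which was counted as a gene of its own.

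Nrp2 (chr1:62703285-62818695, plus strand), the co-receptor preferred by Sema3f and the lymphatic growth factor VEGF-C, went the other way. It was at 69.8, 82.1 and 75.8 CPM with scrambled siRNA at 54 h and at 23.0, 40.6 and 37.5 CPM with Foxl2 siRNA. These groups did not overlap, and Nrp2 fell 2.25-fold (log2 -1.17 ± 0.27, adjusted p = 0.00376). At 30 h the values were 40.7, 65.3 and 52.9 CPM with scrambled and 18.9, 38.9 and 33.8 CPM with Foxl2 siRNA (log2 -0.79 ± 0.26, adjusted p = 0.0662). The groups were again apart, and replicate 1 was the lowest of both. With the replicate number of the titles as a block the difference at 30 h had an adjusted p of 0.00631, and with DESeq2 0.0285.

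The balance between the neuropilins shifted accordingly within each library. Reads per kb of Nrp1 over those of Nrp2 gave ratios of 3.95, 2.43 and 2.99 with scrambled siRNA at 30 h and of 2.26, 1.68 and 1.89 at 54 h. With Foxl2 siRNA the ratios were 22.8, 11.2 and 6.67 at 30 h and 16.9, 5.63 and 12.8 at 54 h. Each Foxl2 siRNA library exceeded each scrambled one, while the spread among the Foxl2 siRNA libraries was wide (13.6 ± 8.33 and 11.8 ± 5.69, SD, n = 3). The ratios are given as values and were not tested. The ratio of Plxna4 to Plxna2 rose by the same measure from 0.0718 ± 0.00627 to 0.243 ± 0.078 at 30 h and from 0.11 ± 0.00384 to 0.468 ± 0.0513 at 54 h, with no overlap. With Esr2 siRNA at 30 h it was 0.169, 0.114 and 0.193, also above the scrambled 0.0651 to 0.0775. That of Plxnb1 to Plxnb2 went from 0.284 ± 0.00222 to 0.414 ± 0.0451 and from 0.29 ± 0.0128 to 0.419 ± 0.0428.

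**Figure D3:**
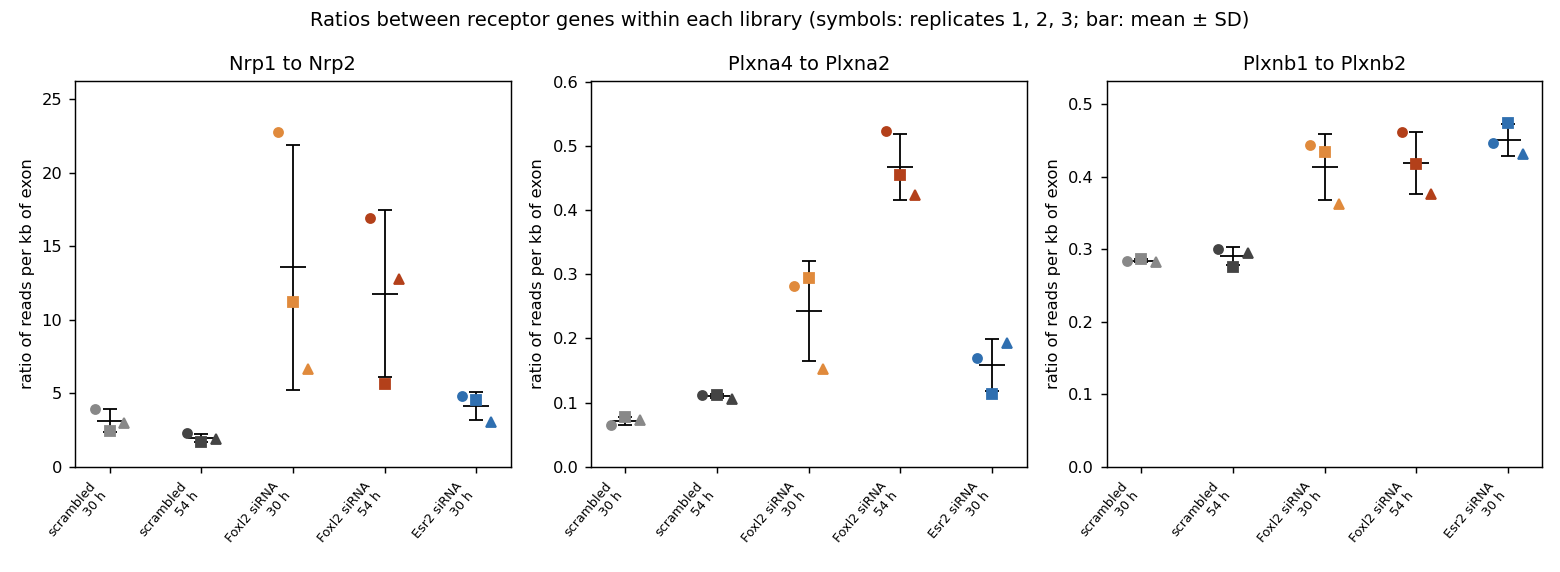
Ratio of reads per kb of exon between pairs of receptor genes within each library (vertical axes from 0), with symbols for replicates 1 to 3 and a bar for the mean ± SD. All 6 Foxl2 siRNA libraries lie above the 6 scrambled libraries in each panel, and the Nrp1 to Nrp2 ratio ranges from 5.63 to 22.8 among them.

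Of the 3 ligand genes, Sema3a and Sema4c fell at 54 h of Foxl2 siRNA and Sema3c was not called. Sema3a (chr5:13125414-13602565, plus strand), the secreted repulsive ligand of Nrp1 with A-class plexins, was at 72.0, 76.5 and 72.8 CPM with scrambled siRNA at 54 h and at 49.4, 26.4 and 54.7 CPM with Foxl2 siRNA. No values overlapped, and Sema3a fell 1.7-fold (log2 -0.76 ± 0.21, adjusted p = 0.0131). Fitted on those 6 libraries alone the adjusted p was 0.069. At 30 h it was at 90.6, 77.8 and 81.7 CPM with scrambled and at 55.4, 61.2 and 43.7 CPM with Foxl2 siRNA (log2 -0.64 ± 0.21, adjusted p = 0.0668). These too were apart, and the change was called by DESeq2 (adjusted p = 0.0394) and in the fit of these 6 libraries (adjusted p = 0.0268).

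Sema4c (chr1:36548639-36558349, minus strand), the membrane-bound ligand of plexin-B2, was at 30.1, 30.7 and 31.7 CPM with scrambled siRNA at 54 h and at 22.0, 28.3 and 25.9 CPM with Foxl2 siRNA. The groups were apart by a narrow margin, and the fall was 1.22-fold (log2 -0.28 ± 0.09, adjusted p = 0.0297). It was lost without any 1 scrambled library or without Foxl2 siRNA replicate 1 or 3 (adjusted p 0.0557 to 0.127), with upper-quartile scaling (adjusted p = 0.0543) and in the fit of the 6 libraries alone (adjusted p = 0.0829). At 30 h Sema4c was at 27.0, 28.1 and 27.2 CPM with scrambled and at 23.2, 26.9 and 21.9 CPM with Foxl2 siRNA (adjusted p = 0.204). Sema4c exons share 334 bases with D430040D24Rik on the opposite strand.

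Sema3c (chr5:17574281-17730268, plus strand), a secreted ligand that can bind either neuropilin, was not called at either time. Its levels were 165, 149 and 159 CPM with scrambled and 175, 154 and 168 CPM with Foxl2 siRNA at 30 h, which overlapped (log2 0.07, 95% interval -0.12 to 0.26, adjusted p = 0.648). At 54 h they were 163, 152 and 160 CPM with scrambled and 180, 197 and 149 CPM with Foxl2 siRNA (log2 0.15, interval -0.04 to 0.33, adjusted p = 0.203). Only without Foxl2 siRNA replicate 3 at 54 h did Sema3c pass the threshold, at a log2 change of 0.25 (adjusted p = 0.0177).

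Set beside the Foxl2 level of each library, the 4 genes with the largest changes did not all follow it in the same way. Within the Foxl2 siRNA groups, Nrp1 was lowest in the library that kept the most Foxl2 at each time. Plxna4 was lowest in that library at 30 h, at 17.0 CPM, but at 54 h it was at 72.3 CPM there, between the others. Sema3a was lowest in the same libraries, at 43.7 and 26.4 CPM, whereas Nrp2 was at 33.8 CPM there at 30 h, between the others, and at 40.6 CPM at 54 h, the highest of its group. With 3 libraries a group these are descriptions and were not tested.

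**Figure D4:**
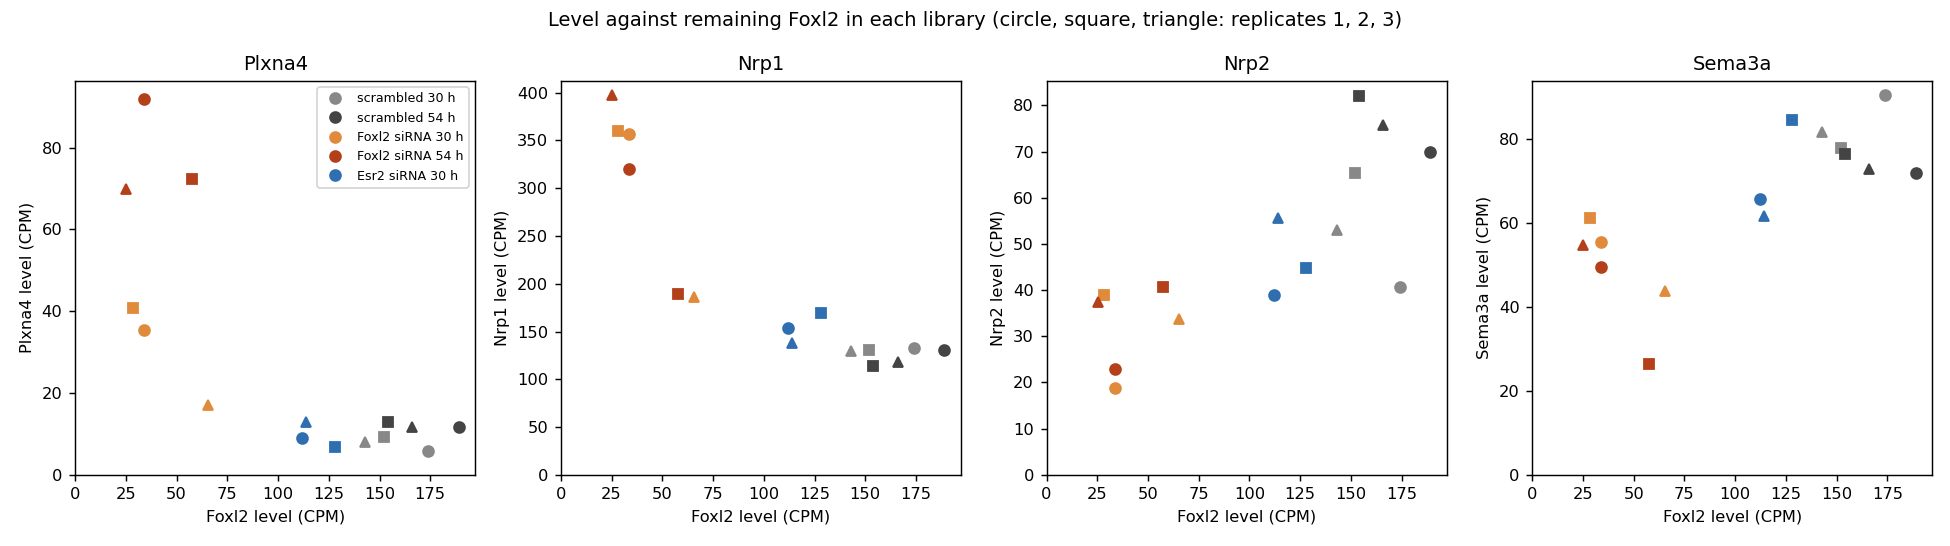
Level of Plxna4, Nrp1, Nrp2 and Sema3a against the Foxl2 level of the same library (both in CPM, axes from 0), 15 libraries coloured by group, with circle, square and triangle for replicates 1, 2 and 3. The Foxl2 siRNA libraries lie at 25.2 to 65.4 CPM of Foxl2, those at 54 h hold more Plxna4 than those at 30 h, and Nrp1 is lowest among them in the libraries at 57.5 and 65.4 CPM of Foxl2.

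With Esr2 siRNA at 30 h 2 of the 10 genes fell, Plxna2 and Plxnb2, and 0 rose, while 4.23% of all genes tested were called, 168 higher and 463 lower (250 and 396 with upper-quartile scaling). DESeq2 called 3 of the 10, all lower, beside 982 of all genes, 343 higher and 639 lower. The scrambled libraries are the same as for Foxl2 siRNA at 30 h. Plxna2 went from 109, 145 and 133 CPM to 64.3, 72.3 and 80.7 CPM, with every Esr2 siRNA library below every scrambled one, a 1.78-fold fall (log2 -0.83 ± 0.11, adjusted p = 0.000794). Plxnb2 went from 427, 428 and 431 CPM to 243, 252 and 279 CPM, a 1.66-fold fall (log2 -0.73 ± 0.07, adjusted p = 3.55e-05). For both genes these 3 libraries were the lowest of all 15, and the calls held in all 6 fits that left out 1 library. Sema4c, the ligand of plexin-B2, was at 21.7, 20.6 and 23.5 CPM, below the scrambled 27.0, 28.1 and 27.2 CPM (log2 -0.32 ± 0.09, adjusted p = 0.0761), and was called by DESeq2 (adjusted p = 0.0404) and in the fit of these 6 libraries (adjusted p = 0.0301).

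The other 7 genes did not pass the test after Esr2 siRNA. Nrp1 was at 154, 169 and 138 CPM (log2 0.23, 95% interval -0.31 to 0.77, adjusted p = 0.723) and Nrp2 at 39.0, 44.8 and 55.5 CPM (log2 -0.19, interval -0.76 to 0.38, adjusted p = 0.796). Plxna4 was at 8.93, 6.77 and 12.8 CPM (log2 0.31, interval -0.33 to 0.95, adjusted p = 0.672). The intervals of Nrp1, Nrp2 and Plxna4, and that of Sema3a (-0.7 to 0.22), are wide enough to hold changes of over 1.5-fold. Plxna1 was at 439, 414 and 474 CPM (adjusted p = 0.486) and Plxnb1 at 135, 148 and 149 CPM (log2 -0.07, interval -0.30 to 0.16, adjusted p = 0.819). Sema3a was at 65.6, 84.5 and 61.6 CPM (adjusted p = 0.639) and Sema3c at 179, 173 and 171 CPM (adjusted p = 0.444). With Plxnb2 lower and Plxnb1 not called, the Plxnb1 to Plxnb2 ratio per kb was 0.451 ± 0.0215 against 0.284 ± 0.00222, without overlap. Surface epithelium markers summed to 480 to 487 CPM in these libraries, and 0 of the 9 were called. The granulosa markers summed to 2550 to 2700 CPM against 3100 to 3310 CPM with scrambled siRNA, and the 1 called lower was Esr2 itself. Neuron and glia markers summed to 317 to 379 CPM against 233 to 255 CPM, with 1 called higher and 0 lower. The part of these markers' cells in the changes was not tested.

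Compared directly at 30 h, 5 of the 10 genes were higher with Foxl2 siRNA than with Esr2 siRNA and 0 were lower, and 20.4% of all genes tested differed. Plxna2 differed by log2 1.08 ± 0.11 (153 against 72.4 CPM on average, adjusted p = 3.89e-05) and Plxnb2 by 0.81 ± 0.07 (452 against 258 CPM, adjusted p = 6.22e-06). For these plexins the mean scrambled level lay between the other 2 groups. Neither was called with Foxl2 siRNA against scrambled at 30 h, where the groups overlapped (adjusted p = 0.17 and 0.491). Plxna4 differed by log2 1.71 ± 0.29 (adjusted p = 0.00145), Plxnb1 by 0.69 ± 0.11 (adjusted p = 0.000638) and Nrp1 by 0.97 ± 0.25 (adjusted p = 0.0166). The Nrp1 call was lost without Foxl2 siRNA replicate 1 or 2 or without Esr2 siRNA replicate 1 or 3 (adjusted p 0.0565 to 0.0678). Nrp2 was lower with Foxl2 siRNA by log2 -0.60 ± 0.26 (adjusted p = 0.124), and with the replicate block the difference was -0.65 (adjusted p = 0.013).

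Time in culture alone changed none of the 10 genes past the threshold: between scrambled siRNA at 54 h and at 30 h edgeR called 0 of the 10, DESeq2 called 0, and 1 had an unadjusted p under 0.05. Among all genes edgeR called 0.00671%, 1 of 14907, and DESeq2 called 52. An unadjusted p under 0.05 with edgeR was found for 727 of all genes. Of the 10 genes the lowest unadjusted p was that of Plxna4, at 11.8 to 13.0 CPM against 5.85 to 9.20 CPM (log2 0.67 ± 0.30, unadjusted p = 0.0423, adjusted p = 0.998), and its groups did not overlap. Nrp2 was at 69.8 to 82.1 CPM against 40.7 to 65.3 CPM (log2 0.52 ± 0.26, adjusted p = 1.0).

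Whether the Foxl2 siRNA change differed between the times was tested as an interaction. In it, edgeR and DESeq2 each called 0 of the 10 genes. Of all genes, edgeR called 0.00671% and DESeq2 called 144. Plxna2 alone of the 10 had an unadjusted p under 0.05 with edgeR, beside 1510 of all genes. Its change was larger by log2 0.35 ± 0.15 at 54 h (unadjusted p = 0.0415, adjusted p = 0.467). For Plxna4 the difference was 0.66 ± 0.41 (95% interval -0.22 to 1.54, adjusted p = 0.649). So genes called at 54 h and not at 30 h, such as Nrp2 and Sema3a, are not shown to differ between the times.

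Of the 21 other plexin and semaphorin genes, 3 rose and 2 fell at 30 h of Foxl2 siRNA, and 9 rose and 4 fell at 54 h, with median log2 changes of 0.21 and 0.18. Of all genes tested 13.0% and 38.8% were called at these times. The 21 were chosen, as the lists below were, with earlier results of these data known. Those that rose at both times were Sema4b, Sema4g and Sema7a, and those that fell at both were Sema4f and Sema5a. At 30 h 4 of these calls did not hold with each library left out. Sema4g was lost without replicate 1 or 3 of scrambled or 1 or 2 of Foxl2 siRNA (adjusted p up to 0.0769), and Sema7a without any 1 scrambled library or Foxl2 siRNA replicate 1 (adjusted p up to 0.0894). Sema4b was lost without scrambled replicate 3 or Foxl2 siRNA replicate 2 (adjusted p up to 0.0554), and Sema4f without scrambled replicate 1 or Foxl2 siRNA replicate 2 (adjusted p up to 0.0542). Sema5a, a membrane-bound semaphorin with thrombospondin repeats, went from 709, 592 and 629 CPM to 316, 372 and 291 CPM at 54 h (log2 -0.98 ± 0.10, adjusted p = 1.97e-05). Sema4f fell from 90.0, 89.6 and 93.3 CPM to 50.2, 16.2 and 41.9 CPM (log2 -1.34 ± 0.32, adjusted p = 0.00578). In both genes the groups were apart. Sema4b rose by log2 0.51 ± 0.10 (adjusted p = 0.00122), Sema4g by 0.73 ± 0.14 (adjusted p = 0.00128) and the GPI-anchored Sema7a by 0.54 ± 0.14 (adjusted p = 0.0103, or 0.0665 in the fit of these 6 libraries), all at 54 h.

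The further genes that rose at 54 h were Plxnb3, Plxnd1, Sema3f, Sema5b, Sema6a and Sema6c, and those that fell were Sema3g and Sema6b. Sema3f, the class 3 ligand of Nrp2, rose from 20.1, 17.9 and 18.6 CPM to 43.4, 46.9 and 29.0 CPM (log2 1.07 ± 0.20, adjusted p = 0.00103), while its co-receptor gene Nrp2 fell. Sema6c went from 18.4 ± 2.29 to 46.3 ± 21.1 CPM (adjusted p = 0.00229), with 22.7 CPM in replicate 3. Plxnd1, the receptor of Sema3e, was at 48.6, 14.6 and 51.0 CPM against 14.1, 18.1 and 16.3 CPM, so the groups overlapped in replicate 2, which kept the most Foxl2 (log2 1.23 ± 0.40, adjusted p = 0.0283). Its call was lost in 5 of 6 fits that left out 1 library (adjusted p 0.0545 to 0.111), each of them keeping replicate 2 in, and with the replicate block and in the fit of these 6 libraries (adjusted p up to 0.0772). The other 5 were rare: Plxnb3 rose from 0.21 ± 0.0748 to 2.08 ± 1.36 CPM (log2 3.28, or 2.61 without replicate 1), Sema5b from 0.26 ± 0.0513 to 1.53 ± 1.33 CPM with overlap (log2 2.53, or 1.63 without replicate 1, and adjusted p = 0.0533 in the fit of the 6 libraries) and Sema6a from 0.359 ± 0.0538 to 1.37 ± 0.392 CPM. Sema3g fell from 1.85 ± 0.287 to 0.336 ± 0.167 CPM and Sema6b from 1.30 ± 0.146 to 0.357 ± 0.153 CPM.

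After Esr2 siRNA 0 of these 21 genes rose and 2 fell, beside 4.23% of all genes called, with a median log2 change of -0.03. They were Plxnc1, from 624, 731 and 682 CPM to 503, 445 and 573 CPM (log2 -0.42 ± 0.10, adjusted p = 0.0253), and its ligand gene Sema7a, from 116, 108 and 119 CPM to 73.1, 74.0 and 63.5 CPM (log2 -0.70 ± 0.14, adjusted p = 0.015). Each call was lost in 4 of 6 fits that left out 1 library. For Plxnc1 these were the fits without scrambled replicate 2 or 3 or Esr2 siRNA replicate 1 or 2 (adjusted p 0.0555 to 0.115), and for Sema7a those without replicate 1 or 3 of either group (adjusted p 0.061 to 0.0835). Sema7a stood at 184, 158 and 164 CPM with Foxl2 siRNA at 30 h, so that the siRNAs moved it to opposite sides of the scrambled level, and the direct difference was log2 1.27 ± 0.15 (adjusted p = 8.87e-05). Sema4f was at 211, 326 and 181 CPM with Esr2 siRNA, against 134, 95.2 and 116 CPM with scrambled (log2 1.06 ± 0.32, adjusted p = 0.087) and 51.0, 40.0 and 37.8 CPM with Foxl2 siRNA. The direct difference of Sema4f was log2 -2.48 ± 0.33 (adjusted p = 0.000269). While 20.4% of all genes tested differed between the siRNAs, 7 of the 21 were higher with Foxl2 than with Esr2 siRNA and 2 lower. The others that were higher were Plxnb3, Plxnc1, Sema3f, Sema4g, Sema6a and Sema6d, and Sema5a was lower. Sema5a lost its call without any 1 of the 6 libraries (adjusted p 0.054 to 0.176) and Sema6a without any but Esr2 siRNA replicate 3 (adjusted p up to 0.121), and both lost it without the filter and in the fit of these 6 libraries. Sema6a lost it with upper-quartile scaling and the replicate block too. Plxnb3 was not called without replicate 1 or 2 of Foxl2 siRNA or 1 or 3 of Esr2 siRNA (adjusted p up to 0.127). Sema3f was not called without Foxl2 siRNA replicate 1 or Esr2 siRNA replicate 1 or 3 (adjusted p up to 0.0909), nor in the fit of these 6 libraries (adjusted p = 0.0593).

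**Figure D5:**
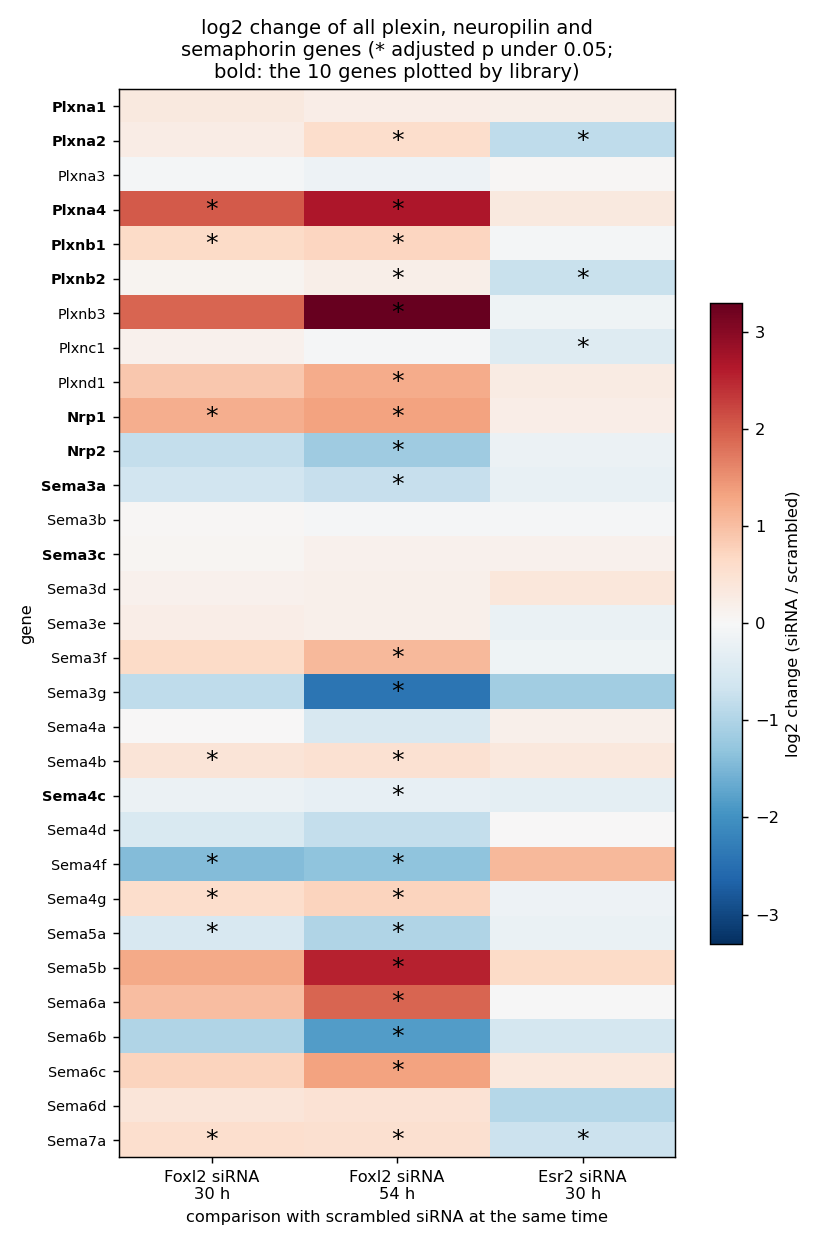
Log2 change (colour, siRNA over scrambled at the same time) of 31 plexin, neuropilin and semaphorin genes in 3 comparisons, with an asterisk at an adjusted p under 0.05 and the 10 genes plotted by library in bold. Most asterisks stand in the column of Foxl2 siRNA at 54 h, and Plxna2, Plxnb2, Plxnc1 and Sema7a carry those of Esr2 siRNA.

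Co-receptors and cytoplasmic partners of plexins formed a list of 45 genes, of which 43 could be tested. With Foxl2 siRNA 6 rose and 2 fell at 30 h, and 13 rose and 2 fell at 54 h, with median log2 changes of 0.11 and 0.17. Of all genes 13.0% and 38.8% were called at these times, so the 15 partner genes called at 54 h are no larger a share of their list than that. Rnd1 and Rnd3, small GTPases that bind plexins, rose by log2 0.63 and 0.57 at 30 h and by 1.21 and 0.87 at 54 h (adjusted p = 3.06e-05 and 0.000631 at 54 h). Rras, a GTPase that plexins switch off, rose by log2 0.82 at 54 h (adjusted p = 0.000554), and Mst1r, a receptor kinase that can join B-class plexins, by 0.78 (adjusted p = 0.000642). Mical2, of a family of actin-oxidising enzymes, differed by log2 0.51 at 30 h (adjusted p = 0.0399). Of the 6 fits with 1 library left out, only the one without Foxl2 siRNA replicate 3 kept that call (adjusted p up to 0.169 in the others), and the fit of the 6 libraries lost it (adjusted p = 0.0991). Dpysl3 and Dpysl5, of the collapsin response mediator family that acts downstream of Sema3a in neurons, fell by 0.70 and 0.53 on the log2 scale at 54 h (adjusted p = 0.00572 and 0.0102). Their falls at 30 h had adjusted p of 0.0105 and 0.0236. At 30 h Rnd3 and Dpysl5 were not called without replicate 2 or 3 of scrambled or 1 or 2 of Foxl2 siRNA (adjusted p up to 0.0968 and 0.0992), nor Dpysl3 without Foxl2 siRNA replicate 1 (adjusted p = 0.0517). At 54 h Dpysl5 was not called without scrambled replicate 2 (adjusted p = 0.0528) or in the fit of the 6 libraries (adjusted p = 0.0562). With 1 library left out, the count at 30 h ranged from 2 to 12.

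After Esr2 siRNA 0 of the 43 rose and 1 fell, Arhgap35, the gene of a GTPase-activating protein that went from 329 to 220 CPM on average (log2 -0.58 ± 0.06, adjusted p = 9.99e-05). It was at 364 CPM with Foxl2 siRNA at 30 h. Of all genes 4.23% were called after Esr2 siRNA and 20.4% between the siRNAs. Between the siRNAs 8 of the 43 were higher with Foxl2 siRNA and 2 lower. Largest among them were Mst1r (log2 0.77), Rnd3 (0.74), Arhgap35 (0.73) and Dpysl2 (0.67) on the higher side, and Dpysl5 (-1.06) and Rhod (-0.31) on the lower side. Rhod was not called without Esr2 siRNA replicate 1 (adjusted p = 0.0513) or in the fit of the 6 libraries (adjusted p = 0.0819).

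Of 8 genes for VEGF ligands and receptors, which share neuropilins with semaphorins, with Foxl2 siRNA 1 rose at 30 h, 2 rose at 54 h and 0 fell. Neither count is a larger share of the 8 than the 13.0% and 38.8% called among all genes. Vegfa rose from 66.5, 77.0 and 72.3 CPM to 130, 107 and 129 CPM at 54 h (log2 0.76 ± 0.18, adjusted p = 0.00468). At 30 h it was at 111, 139 and 87.5 CPM against 63.1, 83.5 and 72.0 CPM (log2 0.63 ± 0.18, adjusted p = 0.0367). The call at 30 h was lost when replicate 1 or 3 of scrambled siRNA, or replicate 1 or 2 of Foxl2 siRNA, was left out (adjusted p 0.0855 to 0.159). Flt4, the receptor of VEGF-C, went from 1.5, 2.16 and 1.66 CPM to 5.24, 3.08 and 6.90 CPM at 54 h (log2 1.51 ± 0.28, adjusted p = 0.00101), and without replicate 2 the count of called VEGF genes was 4. After Esr2 siRNA and in the direct comparison of the siRNAs edgeR called 0 of the 8, beside 4.23% and 20.4% of all genes.

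For each of the 8 genes called at 54 h of Foxl2 siRNA, the gene of the most similar pattern was found by Pearson's r of log2 CPM over the 15 libraries. These r values are descriptions, since the libraries share groups and the changes between groups carry them. For Plxna4 the most similar were Myo5b, Sptbn1 and Ak7, each at r = 0.984, and for Plxnb1 they were Mllt4, Sptan1 and Usp9x, each at 0.988. Nrp1 was most like Aldh1a3, an enzyme that makes retinoic acid, at 0.98, and Nrp2 most like Zfp36l2, an RNA-binding protein gene, at 0.958. Timp2, an inhibitor of metalloproteases, was among the 3 nearest genes of both Plxna2 (0.972) and Plxnb2 (0.975), whose nearest were Papolb (0.978) and Phyhip (0.985). Sema3a was most like Bysl (0.962) and Sema4c most like Cmya5 (0.966).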

How the data were processed

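Per the labels' protocols, poly(A) RNA of granulosa cells went into stranded libraries read as single reads. The authors deposited raw read counts per gene, whole numbers without normalization. Tools named in the submitters' processing notes were TopHat2, DESeq2 and bcl2fastq 2.15.0, with build mm10, and for the counter and its use of strand the entry is not given in the sources used here. Among 24582 features were 92 spike-ins, which entered neither library sizes nor tests. In 1 library 15 date-like symbols were restored by gene order, 0 of them among the 10 genes. Groups and times come from the sample titles. The protocol states extraction at 30 h only.

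Counts were tested with edgeR 4.0.16 (R 4.3.3): TMM scaling, filterByExpr (14907 genes kept), 1 quasi-likelihood fit of 5 group means over 15 libraries (10 residual degrees of freedom, common dispersion 0.022), two-sided, Benjamini-Hochberg adjustment over all genes tested, called at an adjusted p under 0.05. Standard errors derive from the F statistic. The script was tested on simulated data. Exon lengths and gene positions come from GENCODE M21 (GRCm38). The 10 genes, the lists and the rule for named genes (every listed plexin, semaphorin or VEGF gene called, up to 4 partner genes per direction by size of change, 3 genes of like pattern) were chosen with earlier results of these data known. Alternatives were DESeq2 1.42.0, upper-quartile scaling, no filter, a fit of the compared groups alone, a replicate block, and leaving out each library. Same-numbered scrambled libraries at 30 h and 54 h deviated together to differing degrees (r = 0.632, 0.49 and 0.143). The main fit used no pairing, and only the replicate block took the numbers into account.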

Additional observations from a re-analysis of the deposited data

How the results depend on the processing

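The rises of Plxna4, Plxnb1 and Nrp1 at both times of Foxl2 siRNA, those of Plxna2 at 54 h, the fall of Nrp2 at 54 h and the falls of Plxna2 and Plxnb2 after Esr2 siRNA kept their direction and their call under every alternative run. Of 720 values of the 10 genes over all comparisons and alternatives, 681 kept direction and call, 18 lost the call, 10 gained it and 11 changed sign, the last all with 1 library left out and none of them called. At 30 h of Foxl2 siRNA DESeq2 called 5 of the 10 genes in place of 3, adding Nrp2 and Sema3a. Of all genes it called 2304 in place of 1936. With the replicate block the called genes were 4 and 8 for Foxl2 siRNA at 30 h and 54 h, 2 for Esr2 siRNA, 0 for time, 0 for the interaction and 6 between the siRNAs, and the calls it changed are given with Nrp2 in the text. Same-numbered libraries did not all deviate together (r = 0.494, 0.439 and 0.066 between scrambled and Foxl2 siRNA at 30 h). Changes of sign with 1 library left out touched only differences near 0. For time they were Plxna2 (-0.04 to 0.15), Plxnb1 (-0.04 to 0.01) and Sema3c (-0.03 to 0.05). For the interaction they were Plxna1 (-0.27 to 0.01), Plxnb1 (-0.04 to 0.18), Nrp1 (-0.13 to 0.37), Sema3a (-0.32 to 0.14), Sema3c (-0.02 to 0.18) and Sema4c (-0.18 to 0.0). Of the 21 other family genes, 5 were called at 30 h of Foxl2 siRNA and 2 to 8 with 1 library left out (8 with DESeq2), and 2 after Esr2 siRNA with 0 to 2 left so (5 with DESeq2 or in the fit of the compared groups). Of the 43 partner genes 8 were called at 30 h and 2 to 12 with 1 library left out, and 1 after Esr2 siRNA, or 2 with DESeq2 or the block, 4 in the fit of the compared groups and 1 to 3 with 1 library left out. Between the siRNAs 9 of the 21 were called, or 5 to 8 with 1 library left out, and 1 VEGF gene was called in place of 0 with DESeq2 and without replicate 3 of either siRNA. For time, the fit of the compared groups called 1 and 3 genes of these lists in place of 0. The VEGF gene called at 30 h was lost with the replicate block and in that fit. The interaction called 2 genes of each of the first lists without Foxl2 siRNA replicate 2 at 54 h. The cause of these shifts was not tested.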
